A study of Homo sapiens with 9 samples.

Results

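Complement is a cascade of blood and tissue proteins that tags and lyses targets. The classical branch starts when the proteases C1r and C1s, held in the C1 complex, are activated, and the alternative branch amplifies itself through factor B, which joins activated C3 to form a protease that cleaves more C3. C1 inhibitor blocks C1r and C1s, while CD55 and CD59, both anchored in the cell membrane by a lipid, protect the cell that carries them. Keratinocytes are known to make part of the system themselves, C3 and factor B among it, and to raise both under inflammatory cytokines.

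The values describe 7 complement genes, chosen by name from the 78899 gene IDs of each count file: C3, CFB, C1R, C1S, SERPING1, CD55 and CD59. All 7 were found. They were measured by RNA-seq in HaCaT cells, an immortalized human keratinocyte line, in 3 libraries of the subpopulation BD, 3 of the subpopulation NBD, both obtained by cell sorting, and 3 of the line itself, labelled control. BD and NBD are not spelled out in the labels. All cells were grown in high-glucose DMEM with low-calcium serum, carry no labelled treatment or edit, and come from 1 line, so that the libraries do not represent different donors. Total RNA was depleted of rRNA, after extraction with 1 of a pair of named kits that the labels do not tie to libraries. Separate cultures are not stated for the replicates, so the p-values weigh only library-to-library spread, which may be technical.

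Library totals were 25754757 to 28948743 counts in BD, 25862752 to 29512856 in NBD and 17128797 to 25782938 in control. All 12 keratinocyte markers examined were expressed, with a summed level of 3453 to 4074 normalised CPM (counts scaled to a common library size) in BD, 3048 to 3556 in NBD and 3448 to 4322 in control. The control libraries were not alike. Replicates 1 and 2 held 18054999 and 17128797 counts, of which 12.3% and 11.9% were mitochondrial rRNA, against 25782938 counts and 20.7% in replicate 3. In the sorted libraries this share was 17.3% to 22.3% in BD and 26.8% to 28.9% in NBD, so BD and NBD did not overlap in it. Of 16921 genes tested, 21.6% were lower and 18.9% higher in both control replicates 1 and 2 than in each of the other 7 libraries. The control CPM or counts of the 7 complement genes are therefore given one by one, while some other control values are given as ranges. The keratinocyte markers shared in this split. KRT15, a basal keratin, stood at 285 to 446 CPM in BD, NBD and control replicate 3, against 27.1 and 27.3 CPM in control replicates 1 and 2. In the fits without control replicate 3, 1 of the 12 (KRT15) was called higher in BD and 2 lower (KRT5 and ITGA6), and in NBD the same genes and CDH1, which was lower. Of all 17755 genes in these fits, 13.8% were called higher and 10.5% lower in BD, and 11.6% and 6.56% in NBD.

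Promoter sequence was at hand in RefSeq for CFB, C1R, CD55 and CD59, in 8 windows. The 250 bases before the start are shown for CFB and C1R, which were low in control replicates 1 and 2, and for CD59, which was high there. Capitals mark matches, on either strand, to a loose form of the NF-kB site (GGG and CC with 5 bases of any kind between them), to TTCNNNGAA (the gamma-interferon activation site bound by STAT factors) and to the core of the interferon-stimulated response element (GAAA repeated after 2 bases of any kind). All are on build GRCh38.p14, written 5′ to 3′ on the strand of the gene.

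CFB, chr6:31945845-31946094, plus strand: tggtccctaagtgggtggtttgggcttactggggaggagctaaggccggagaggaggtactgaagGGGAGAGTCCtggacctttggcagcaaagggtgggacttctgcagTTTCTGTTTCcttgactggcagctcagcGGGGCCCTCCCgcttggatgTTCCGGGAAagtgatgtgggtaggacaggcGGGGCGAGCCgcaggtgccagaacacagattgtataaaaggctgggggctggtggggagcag
C1R, upstream start, chr12:7092446-7092695, minus strand: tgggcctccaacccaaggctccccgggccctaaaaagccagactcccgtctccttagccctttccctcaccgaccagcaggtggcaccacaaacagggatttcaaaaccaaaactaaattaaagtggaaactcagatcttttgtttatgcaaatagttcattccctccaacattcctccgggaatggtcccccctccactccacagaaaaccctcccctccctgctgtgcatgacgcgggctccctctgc
C1R, downstream start, chr12:7091894-7092143, minus strand: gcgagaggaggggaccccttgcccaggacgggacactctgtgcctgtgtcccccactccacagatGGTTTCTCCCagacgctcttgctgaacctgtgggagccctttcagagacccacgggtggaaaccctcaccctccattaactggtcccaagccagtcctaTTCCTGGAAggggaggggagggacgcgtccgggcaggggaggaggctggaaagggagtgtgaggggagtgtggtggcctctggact
CD59, most upstream start, chr11:33736480-33736729, minus strand: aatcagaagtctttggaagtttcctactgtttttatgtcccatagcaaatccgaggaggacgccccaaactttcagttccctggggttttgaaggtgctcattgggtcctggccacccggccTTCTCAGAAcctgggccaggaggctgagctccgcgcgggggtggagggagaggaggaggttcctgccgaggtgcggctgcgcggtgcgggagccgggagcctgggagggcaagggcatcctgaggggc

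The CFB window held 4 matches to the NF-kB form, of which 2 overlap by all but 1 base, together with 1 match to the STAT site, 92 bases before the start, and 1 to the interferon element, 140 bases before it. The STAT letters also occurred once in the downstream C1R window and once in the CD59 window shown, and none of the 3 forms marked here occurred in the upstream C1R window. The letters TTNNGNAA, for C/EBP factors, are not marked and were found in 2 places in the upstream C1R window, in 1 place in the downstream one, and in neither the CFB window nor the CD59 window shown. CD59 has 4 windows, and those not printed differ from the one that is: the second held 2 matches to the NF-kB form and the same STAT match, the third 2 to the C/EBP form and the fourth 1 to the NF-kB form. The CD55 window held 1 match to the NF-kB form. Over all 35116 RefSeq windows of this length, 54.4% held the NF-kB form, 6.57% the STAT form, 3.02% the interferon form and 33.2% the C/EBP form. These are matches of letters, not measured sites.

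C3, the central component of every complement branch (ENSG00000125730, GRCh38 chromosome 19, 6677704 to 6730562, minus strand), had the highest level per exon length of the 7 in every sorted library. Its normalised CPM was 870, 824 and 1090 in the BD libraries, 972, 465 and 615 in the NBD libraries, and 24.7, 29.3 and 843 in control replicates 1, 2 and 3. Control replicates 1 and 2 therefore lay below every other library, while control replicate 3 lay inside the BD range. Fewer cells that make a transcript and less of it per cell cannot be told apart in such bulk libraries.

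CFB encodes factor B, the protease precursor of the alternative branch (chromosome 6, 31945650 to 31952084, plus strand). It stood at 9.93, 11.5 and 21.9 CPM in BD, at 11.9, 8.52 and 20.7 CPM in NBD, and at 0.0511, 0.280 and 18.9 CPM in control. The lowest values rest on 1 count in control replicate 1 and 5 counts in control replicate 2, whose exact Poisson 95% intervals were 0.00129 to 0.285 and 0.0910 to 0.654 CPM and cover counting error only. Both intervals end far below the 8.52 CPM of the lowest sorted library.

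C1R, one of the C1 proteases (chromosome 12, 7080199 to 7092607, minus strand), stood at 16.6, 19.9 and 36.0 CPM in BD, at 16.4, 12.2 and 27.9 CPM in NBD, and at 1.74, 1.57 and 27.5 CPM in control. C1S, the protease that C1r activates (chromosome 12, 6988259 to 7071032, plus strand), stood at 25.5, 23.0 and 41.1 CPM in BD, at 31.3, 19.4 and 39.8 CPM in NBD, and at 3.12, 3.87 and 40.2 CPM in control. These neighbours on chromosome 12, whose 3′ ends face each other, showed one pattern, with control replicates 1 and 2 under the other 7 libraries and no separation of BD from NBD.

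SERPING1, which encodes C1 inhibitor (chromosome 11, 57597387 to 57614853, plus strand), was near absent from the counts. It had 0 counts in all 3 BD libraries, 0, 1 and 0 counts in NBD, and 0, 0 and 1 counts in control. The exact Poisson 95% interval of a count of 0 reaches to 0.127 to 0.145 CPM in the BD libraries and to 0.207 CPM in control replicate 2, where it is highest among the libraries with 0 counts. The proteases C1R and C1S had 296 to 1192 counts in each sorted library, and the inhibitor of both at most 1. It was too low for the tests.

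CD55, decay-accelerating factor, which takes apart the C3-cleaving enzymes on the cell surface (chromosome 1, 207321376 to 207386804, plus strand), stood at 23.8, 43.7 and 59.1 CPM in BD, at 28.2, 40.9 and 62.6 CPM in NBD, and at 32.5, 29.8 and 51.7 CPM in control. Control replicates 1 and 2 lay inside the range of the sorted libraries, unlike for the 4 components above. CD59, which blocks the last step of pore formation (chromosome 11, 33703010 to 33736491, minus strand), stood at 108, 141 and 134 CPM in BD, at 93.8, 128 and 148 CPM in NBD, and at 300.2, 300.4 and 114 CPM in control. It was the one of the 7 that was higher in control replicates 1 and 2 than in each of the other 7 libraries.

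**Figure D1:**
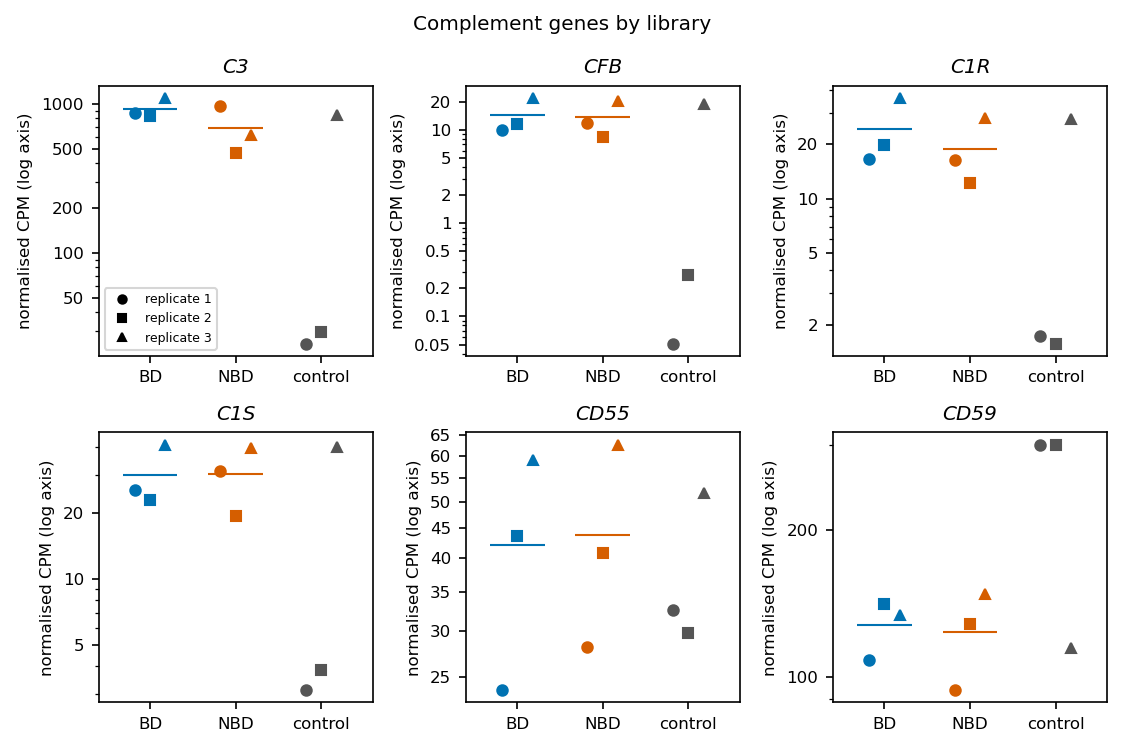
Normalised CPM of 6 complement genes in each of the 9 libraries (one panel a gene, log axis with its own range in each panel, marker shape for the replicate, horizontal line for the mean of BD or NBD, n = 3; no mean is drawn for control). In control replicates 1 and 2 C3 was at 24.7 and 29.3 CPM and CD59 at 300.2 and 300.4 CPM, while control replicate 3 lay inside the range of the 6 sorted libraries for every gene shown.

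Between BD and NBD no difference was found in any of the 6 genes tested, and the libraries of the groups overlapped for each of them. C3 averaged 928 ± 142 CPM in BD and 684 ± 260 CPM in NBD (SD, n = 3 each). The log2 fold change was 0.42 ± 0.29 (SE; 95% interval -0.23 to 1.07; edgeR quasi-likelihood test, adjusted p = 0.693). C1R averaged 24.2 ± 10.4 CPM in BD and 18.8 ± 8.08 CPM in NBD, which differed by 0.34 ± 0.36 on the log2 scale (interval -0.47 to 1.16). For the other 4 the log2 fold changes were 0.06 ± 0.38 for CFB, -0.03 ± 0.30 for C1S, -0.07 ± 0.36 for CD55 and 0.04 ± 0.21 for CD59.

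The intervals show how far these comparisons reach. The 95% interval of CD59 was the narrowest, -0.43 to 0.50 on the log2 scale, while CFB could differ by -0.80 to 0.92, CD55 by -0.88 to 0.73 and C1S by -0.71 to 0.65. Of the 6 genes, 0 were called by edgeR, 0 by DESeq2 and 0 had an unadjusted p under 0.05. Over all 16151 genes tested 0.031% were called, all lower in BD: the small nucleolar RNAs SNORD3A and SNORD17, named after their values were seen, and the mitochondrial mRNAs MT-ND4, MT-CYB and MT-ATP6. Of 16921 genes, 14.6% had BD and NBD libraries that did not overlap, 7.19% higher and 7.36% lower in BD, against 0 of these 6.

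The sorted libraries differed among themselves. C1R ran from 16.6 to 36.0 CPM within BD and from 12.2 to 27.9 CPM within NBD. C3 ran from 824 to 1090 CPM within BD and from 465 to 972 CPM within NBD. Over the 6 sorted libraries the highest value exceeded the lowest 2.94-fold for C1R, 2.64-fold for CD55, 2.57-fold for CFB, 2.35-fold for C3, 2.12-fold for C1S and 1.58-fold for CD59. Replicate 3 held the highest value of CFB, C1R, C1S and CD55 in BD and again in NBD. Those libraries also had the largest totals of their groups, 28948743 and 29512856 counts, and the part of depth in this was not tested. The sign of the C1R difference rested on 1 library: without BD replicate 3 it was -0.05, and without NBD replicate 3 it was 0.75.

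**Figure D2:**
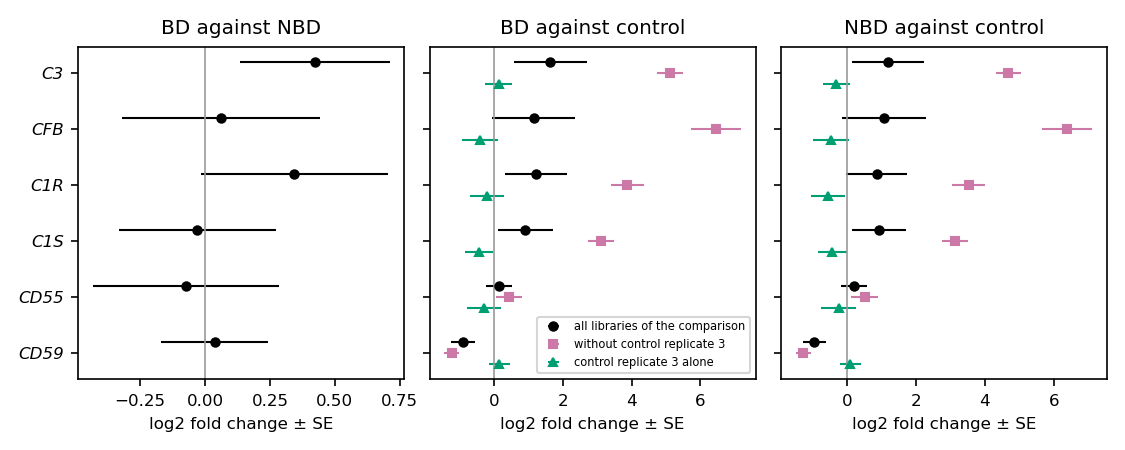
Log2 fold change ± SE of 6 complement genes in the 3 comparisons (edgeR; the BD against NBD panel has a narrower axis). Black points use all libraries of the comparison, pink squares leave out control replicate 3 and green triangles use control replicate 3 as the only control library; C3 in BD against control stood at 1.63, 5.11 and 0.13 under these settings.

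Against the 3 control libraries together, none of the 6 genes passed the test in either sorted group. In BD against control, C3 was at 1.63 ± 1.06, C1R at 1.22 ± 0.90, CFB at 1.15 ± 1.22 and C1S at 0.92 ± 0.79 on the log2 scale, with adjusted p between 0.473 and 0.643 (edgeR). CD59 was at -0.90 ± 0.34 (adjusted p = 0.343) and CD55 at 0.15 ± 0.37. In NBD against control the values were 1.19 ± 1.05 for C3, 1.07 ± 1.22 for CFB, 0.93 ± 0.79 for C1S, 0.86 ± 0.89 for C1R, 0.21 ± 0.37 for CD55 and -0.95 ± 0.34 for CD59 (adjusted p = 0.539). The unadjusted p of CD59 was 0.0230 in BD and 0.0177 in NBD, and 0 of the other 5 had one under 0.05 in either comparison. Both comparisons use the same control libraries, so they are not independent of each other. For 0 of the 6 genes did the sorted and control libraries separate, where 15.8% of 16921 genes did so in BD against control (8.05% higher, 7.72% lower) and 8.42% in NBD against control (4.67% higher, 3.75% lower). Over all 16921 genes edgeR called 0% in both, with 2334 and 1545 genes at an unadjusted p under 0.05, and DESeq2 called 167 and 30, none of them among the 7.

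These results turned on control replicate 3. Without it, C3 rose in BD by 5.11 ± 0.38 on the log2 scale, 34.6-fold (edgeR, adjusted p = 2.53e-05), and in NBD by 4.68 ± 0.37, 25.7-fold (adjusted p = 3.87e-05). CFB rose by 6.45 ± 0.72 in BD (adjusted p = 2.63e-04) and by 6.39 ± 0.72 in NBD (adjusted p = 3.59e-04), both against the 6 counts of control replicates 1 and 2 together, so the size of this fold is loosely fixed. C1R rose by 3.88 ± 0.48 and 3.53 ± 0.47 (adjusted p = 4.66e-04 and 9.38e-04), and C1S by 3.11 ± 0.38 and 3.13 ± 0.38 (adjusted p = 4.53e-04 and 5.72e-04), in BD and in NBD.

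In the same fits CD59 fell by 1.22 ± 0.22 in BD (adjusted p = 0.00312) and by 1.26 ± 0.22 in NBD (adjusted p = 0.00342), while CD55 was not called, at 0.45 ± 0.38 in BD and 0.51 ± 0.38 in NBD (edgeR, adjusted p = 0.425 and 0.376). So 4 of the 6 genes were called higher and 1 lower in each comparison, where 24.3% of all 17755 genes were called in BD (13.8% higher, 10.5% lower) and 18.2% in NBD (11.6% higher, 6.56% lower). The split among controls was known when the 7 genes were listed. Set against control replicate 3 alone, with the spread taken from the sorted groups, 0 of the 6 genes were called and C3 was at 0.13 ± 0.40 in BD and -0.31 ± 0.39 in NBD. At an unadjusted p under 0.05 that setting held 208 genes for BD and 249 for NBD, and edgeR called 0 of 18832 in each. The higher counts of mitochondrial rRNA and the larger totals outside control replicates 1 and 2 move with these differences, and their part was not tested.

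Most markers of other cell types that make complement were low. CDH5, given below, reached 18.8 CPM, where CFB ran from 8.52 to 21.9 CPM in BD, NBD and control replicate 3. The 8 hepatocyte markers summed to 0.764 to 1.45 CPM in BD, 0.630 to 0.865 CPM in NBD and 0.255 to 1.13 CPM in control, with APOB, FGB and TTR at 0 in every library. SERPINA1, a protease inhibitor, made up most of this sum, at 0.764, 1.45 and 1.17 CPM in BD, 0.519, 0.662 and 0.826 CPM in NBD, and 0.204, 0.224 and 1.05 CPM in control. It was called higher in BD without control replicate 3, by 2.38 ± 0.57 (edgeR, adjusted p = 0.0130), and not in NBD, at 1.64. Between BD and NBD SERPINA1 was not called, at 0.74 on the log2 scale. The 8 myeloid markers summed to 4.76 to 7.13 CPM in BD, 3.93 to 7.08 CPM in NBD and 1.07 to 6.78 CPM in control, of which only CD14 reached 1 CPM, and AIF1 and TYROBP had 0 counts throughout. CD14, a receptor for bacterial lipopolysaccharide, was itself called higher without control replicate 3, by 2.78 ± 0.43 in BD and 2.57 ± 0.43 in NBD (edgeR, adjusted p = 0.00149 and 0.00281). The 8 fibroblast markers summed to 5.97 to 10.2 CPM in BD, 4.37 to 12.0 CPM in NBD and 8.36 to 15.4 CPM in control. COL1A1, a collagen chain, stood at 1.22 to 3.76 CPM in BD, NBD and control replicate 3, against 0.255 and 0.729 CPM in control replicates 1 and 2. FBLN1, an extracellular matrix protein, went the other way, at 1.48 to 7.82 CPM against 13.8 and 14.1 CPM. COL1A1 was called higher and FBLN1 lower in both sorted groups when control replicate 3 was left out. The 8 endothelial markers summed to 12.0 to 19.2 CPM in BD, 6.83 to 16.4 CPM in NBD and 2.02 to 16.9 CPM in control, with PECAM1 at no more than 0.197 CPM in any library. CDH5, an endothelial cadherin, stood at 14.6, 11.8 and 18.8 CPM in BD, at 15.6, 5.92 and 11.9 CPM in NBD, and at 1.07, 0.785 and 16.6 CPM in control. VWF, von Willebrand factor, stood at 0.417, 0.118 and 0.0689 CPM in BD, at 0.593, 0.703 and 0.157 CPM in NBD, and at 1.53, 1.07 and 0.0753 CPM in control. In the same setting CDH5 was called higher in both sorted groups and VWF lower in BD. Of all 17755 genes in that setting, 13.8% were called higher and 10.5% lower in BD, and 11.6% and 6.56% in NBD. The part of these markers in the complement values was not tested. The 7 melanocyte markers summed to 2.85 to 4.48, 3.15 to 5.63 and 3.93 to 4.82 CPM in BD, NBD and control.

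The components differed in how strongly the control libraries split. Subtracting the mean of each gene over the 9 libraries on the log2 CPM scale, control replicate 1 stood at -5.40 for CFB, -3.91 for C3, -2.74 for C1R, -2.56 for C1S, -0.27 for CD55 and 1.00 for CD59. Control replicate 2 stood at -3.94, -3.66, -2.88, -2.26, -0.40 and 1.00 in the same order. The CFB values rest on 1 and 5 counts in these libraries. C1R and C1S were the most alike of the 7, with a root mean square difference of 0.32 between their centred profiles. From C3 the difference was 0.66 to C1R, 0.71 to CFB and 0.81 to C1S, and from CFB to CD59, the least alike, it was 3.08.

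**Figure D3:**
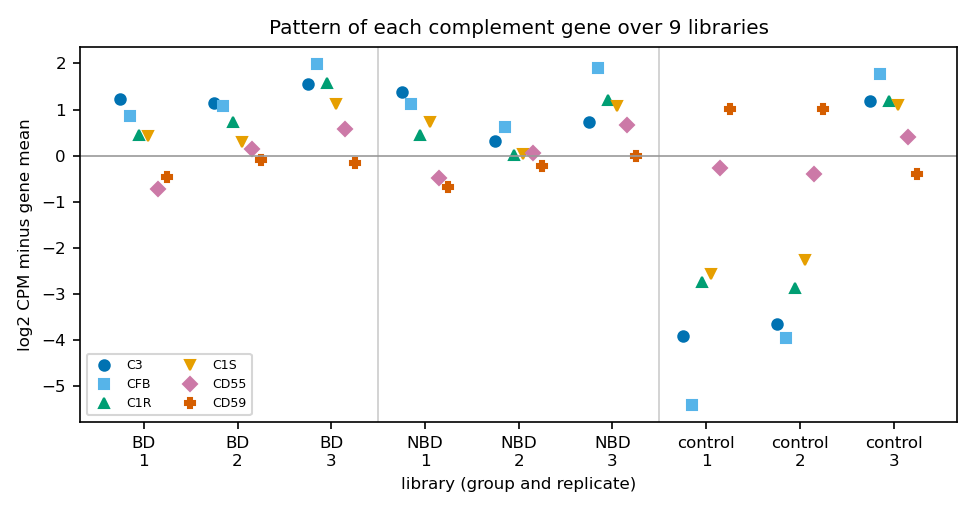
Log2 CPM of each of 6 complement genes minus its own mean over the 9 libraries, one column a library and one marker a gene, with vertical lines between the groups. In control replicates 1 and 2 CFB stood at -5.40 and -3.94, on 1 and 5 counts, and CD59 at 1.00 in both. In control replicate 3 every gene stood inside its range over the sorted libraries.

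By the same measure, and among 12592 protein-coding genes tested, the nearest to C3 were BEND7 at 0.20, VGLL2 at 0.25 and EMILIN2 at 0.28, where C3 itself departs from its mean by 2.05. The nearest to CFB were FSTL1, TMEM25 and ZC4H2, at 0.24 to 0.33. To C1R they were NRG2, TWIST1 and GBP2, at 0.19 to 0.22, and to C1S NFKBIZ, NPAS3 and TMC4, at 0.18 to 0.21. C1S held place 22 among the genes nearest to C1R, and C1R place 35 among those nearest to C1S. For CD55 the nearest were SLC16A10, CCDC80 and ITGA1, at 0.11 to 0.15. For CD59 they were TES, INTS13 and P4HA1, at 0.083 to 0.12, of which TES stood at 89.2 to 126 CPM in BD, NBD and control replicate 3, against 239 and 250.5 CPM in the remaining control libraries. The measure covers 9 libraries that share the same control split, and BEND7, VGLL2, EMILIN2, NRG2, NPAS3, FSTL1, TMEM25 and ZC4H2 had at most 0.168 CPM in control replicates 1 and 2, so their likeness rests on few counts there.

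Per kilobase of annotated exon, C3 was the highest of the 7 in every sorted library and in control replicate 3. It stood at 104, 99.0 and 131 CPM per kilobase in BD, at 117, 55.8 and 73.9 in NBD, and at 2.96, 3.52 and 101 in control. CD59 came second in these 7 libraries, at 10.5 to 13.6 CPM per kilobase in BD, 9.05 to 14.3 in NBD and 11.04 in control replicate 3, and first in control replicates 1 and 2, at 28.98 and 29.003. CD55 followed, except behind C1S in NBD replicate 1 and ahead of C3 in control replicates 1 and 2, at 4.02 to 9.999 in BD, 4.78 to 10.6 in NBD and 5.05 to 8.75 in control. C1S, C1R and CFB kept this order in all 9 libraries, at 3.57 to 6.36, 2.82 to 6.12 and 1.99 to 4.39 CPM per kilobase in BD, ranges that overlap one another and that of CD55. The lengths sum all annotated exons of a gene, rare ones included, so levels of genes with long rare exons are understated.

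Ratios within a library take out its depth. The level of C1S per kilobase was 1.04 to 1.40 times that of C1R in BD, 1.30 to 1.74 times in NBD and 1.33 to 2.24 times in control, so these partners stayed near each other even where both were low. C3 exceeded CFB per kilobase 29.8-fold to 52.5-fold in BD and 17.8-fold to 48.9-fold in NBD, and in control 290-fold, 62.8-fold and 26.7-fold in replicates 1, 2 and 3, the first 2 of which rest on 1 and 5 counts of CFB. CD59 per kilobase was 1.29 to 2.603 times CD55 in BD, 1.35 to 1.89 times in NBD, and 5.26, 5.74 and 1.26 times in control.

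**Figure D4:**
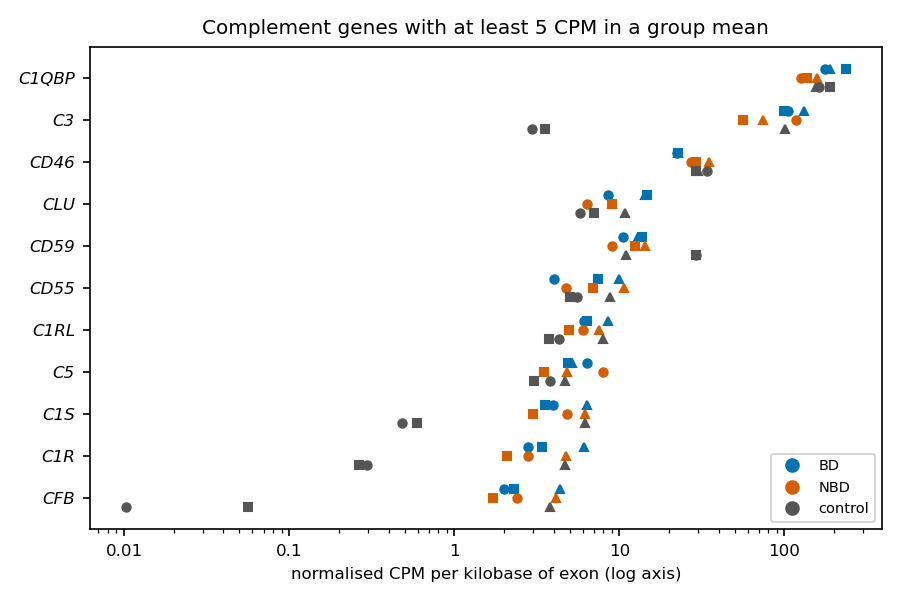
Normalised CPM per kilobase of exon (log axis) of complement genes with at least 5 CPM in the mean of a group, one row a gene, with BD above NBD above control in each row and marker shape for the replicate as in the plot of levels by library. C3 stood at 55.8 to 131 in the sorted libraries and at 2.96 and 3.52 in control replicates 1 and 2.

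Much of the remaining cascade was not detected. Of 17 other genes that start or feed the cascade, 6 had 0 counts in every library, among them C1QA, C1QB and C1QC, the chains of the recognition subunit that C1r and C1s need in the C1 complex, and 1 reached 5 CPM in a group mean. That gene was C1RL, a relative and neighbour of C1R, at 30.8 to 43.0 CPM in BD, 24.9 to 37.5 CPM in NBD, and 21.7, 18.8 and 39.7 CPM in control. C4A, the next component of the classical branch, had at most 0.455 CPM in any library and shares nearly all its sequence with C4B, so the count of either is uncertain. CFD, the factor D protease that cleaves factor B, stood at 1.60 to 3.86 CPM in BD, 1.16 to 2.64 CPM in NBD, and 0.409, 0.953 and 3.31 CPM in control. In this list 4 genes were tested and 0 called in each comparison. Their median log2 fold change was -0.16 in BD against NBD, beside -0.02 over all genes tested, 0.39 against control in BD, beside 0.03, and 0.56 against control in NBD, beside 0.04. Without control replicate 3, C1RL rose by 0.81 ± 0.24 and CFD by 1.81 ± 0.60 in BD (edgeR, adjusted p = 0.0290 and 0.0490), and 0 of 4 were called in NBD. In these fits all 4 lay above 0 in both sorted groups, at a median log2 fold change of 0.65 in BD and 1.20 in NBD. Of all 17755 genes, 13.8% were called higher in BD and 11.6% in NBD. Between BD and NBD, neither C1RL nor CFD was called in any of 13 alternative settings.

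Of the 7 genes of the lytic pore and its start, C7, C8A, C8B and C9 had 0 counts in every library. C5, whose cleavage starts pore formation, stood at 31.7 to 41.9 CPM in BD, 22.9 to 51.7 CPM in NBD and 19.7 to 30.7 CPM in control, and was not called in any comparison. On the log2 scale C5 differed from control by 0.51 ± 0.29 in BD and by 0.49 ± 0.29 in NBD, and BD from NBD by 0.00 ± 0.28. Of the list 0 of 2 tested genes of this list were called without control replicate 3.

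Of 13 further regulators 6 had 0 counts in every library, and CD46 and CLU were among those that reached 5 CPM. CD46, a membrane cofactor for the breakdown of C3b, stood at 195, 197 and 197 CPM in BD, at 236, 254 and 304 CPM in NBD, and at 296, 254 and 259 CPM in control. All BD libraries lay below all NBD libraries, as for 7.36% of 16921 genes, and below all control libraries, as for 7.72%. The log2 fold change was -0.44 ± 0.17 against NBD and -0.46 ± 0.17 against control, at unadjusted p of 0.0289 and 0.0218 and without a call (edgeR, adjusted p = 0.566 and 0.343). CLU, the fluid-phase inhibitor clusterin, stood at 56.6, 96.8 and 94.8 CPM in BD and at 42.0, 59.4 and 60.0 CPM in NBD. These ranges overlap, and the difference, 0.61 ± 0.24 on the log2 scale, was not called (edgeR, adjusted p = 0.568).

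Without control replicate 3, CLU rose in BD by 0.98 ± 0.27 on the log2 scale (edgeR, adjusted p = 0.0222) and was not called in NBD, at 0.36 ± 0.26 (adjusted p = 0.357). In this setting 13.8% of all 17755 genes were called higher in BD. The direct comparison of CLU between BD and NBD, given above, was not called.

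Of 10 receptor genes 3 were tested with all libraries, and 0 were called in any of the comparisons. C1QBP, a protein of the mitochondrial matrix that also binds C1q, stood at 410, 551 and 440 CPM in BD, at 293, 318 and 370 CPM in NBD, and at 377, 438 and 365 CPM in control. Its BD libraries lay above its NBD libraries, as for 7.19% of 16921 genes, by 0.50 ± 0.20 on the log2 scale and uncalled (edgeR, adjusted p = 0.568). The receptors for the released peptides were low, C5AR1 at 1.15 to 1.92 CPM in BD, 0.551 to 1.70 CPM in NBD and 0.336 to 1.17 CPM in control. The median of the 3 tested genes was 0.45 on the log2 scale between BD and NBD, and 0.67 over control in BD and 0.67 in NBD. Without control replicate 3, 1 of 4 tested genes, CR2, was called lower in each sorted group, though at no more than 0.562 CPM in any library. Of all 17755 genes, 10.5% were called lower in BD and 6.56% in NBD.

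Transcription factors known to drive complement genes fell into those that split the control libraries and those that did not. NFKBIZ, a nuclear cofactor of NF-kB, stood at 88.4, 80.9 and 122 CPM in BD, at 118, 82.0 and 133 CPM in NBD, and at 14.2, 12.1 and 145 CPM in control. CEBPD and CEBPB, acute-phase activators of the C/EBP family, split the same libraries. CEBPD had at least 21.6 CPM in BD, NBD and control replicate 3, against 5.57 and 5.10 CPM in control replicates 1 and 2, and CEBPB at least 30.7 CPM, against 11.9 and 13.9 CPM. Without control replicate 3 these 3 and IRF1, an interferon response factor, were called higher in both sorted groups, and STAT3 in BD as well, which makes 5 of 8 in BD and 4 of 8 in NBD, where 13.8% and 11.6% of all genes were called higher. The largest of these was NFKBIZ, at 2.89 ± 0.28 in BD and 3.10 ± 0.28 in NBD (edgeR, adjusted p = 1.20e-04 and 1.09e-04). This list was chosen with earlier results of these data known, so its share of calls is no test of the factors as a set.

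Between BD and NBD, 0 of these 8 factors were called, at a median log2 fold change of 0.18. RELA, an NF-kB subunit, stood at 47.8, 45.0 and 49.8 CPM in BD and at 37.0, 27.7 and 25.6 CPM in NBD, 0.64 ± 0.19 apart on the log2 scale. STAT3, which relays cytokine signals, stood at 273, 309 and 324 CPM in BD and at 231, 184 and 199 CPM in NBD, 0.55 ± 0.18 apart. IRF1 stood at 172, 188 and 193 CPM in BD and at 158, 96.4 and 105 CPM in NBD, 0.61 ± 0.21 apart. For each of these 3 all BD libraries lay above all NBD libraries, as they did for 7.19% of 16921 genes, with unadjusted p of 0.00690, 0.0133 and 0.0192 and adjusted p of 0.470, 0.521 and 0.546 (edgeR). NFKB1, another NF-kB subunit, overlapped between BD and NBD, at 0.15 ± 0.21.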

How the data were processed

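The authors deposited raw counts per gene for 9 HaCaT libraries. The submitters' processing notes name GRCh38, featureCounts, STAR 2.7.11b, Trimmomatic 0.39 and FastQC 0.74. Annotation release and strand setting: not given in the sources used here. Of 78899 IDs, 61458 matched a gene name table and 54 more GENCODE 29, which gave positions and exon lengths. GENCODE 29 places other genes over C3 (GPR108), CFB (C2), C1R (C1RL), C1S (EMG1 and, on the other strand, LPCAT3) and CD59, so their counts are uncertain where exons overlap.

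The quasi-likelihood test of edgeR 4.0.16 (R 4.3.3) was used with filterByExpr, TMM scaling and Benjamini-Hochberg adjustment over all genes, called under 0.05, two-sided. BD against NBD used those 6 libraries (16151 genes), because the control libraries are not alike; the control comparisons used all 9 (16921 genes). Standard errors are the log2 fold change over the square root of F. Levels are CPM of the TMM-scaled total; centred profiles used log2 CPM with a prior count of 2. The tests were tested on simulated data. Alternatives were RLE size factors, no filter, a filter of 1 CPM in 3 libraries, DESeq2 1.42.0, a replicate block, other libraries in the fit, each library left out, control replicate 3 alone and removal of mitochondrial rRNA. Genes named are the 7 members, called or abundant genes of the fixed lists, and the 3 nearest profiles per member; some of the listed genes are not reported here. The members and lists were chosen with earlier results of these data known.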

Additional observations from a re-analysis of the deposited data

How the results depend on the processing

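Over the alternatives, 264 values of single complement genes stayed on the same side of the threshold and 18 became calls, 10 without control replicate 3 and 8 with no filter on low counts. With no filter C3 was called in BD against control at 1.64 (edgeR, adjusted p = 8.37e-07) and in NBD at 1.18 (adjusted p = 0.00263), the control libraries being as unlike as before. With control replicate 3 alone 11 of 12 values changed sign, none of them called. Leaving out single libraries turned signs of small differences between BD and NBD. Genes called in BD against NBD were 5, against 218 of 37387 with no filter, 108 with DESeq2, 3 with all 9 libraries in the fit and 0 to 14 without single libraries: 9 without NBD replicate 1, 14 without NBD replicate 3 and 0 without any other. BD against control gave 0, against 1162 of 39344 with no filter, 167 with DESeq2, and 0 to 4317 without single libraries, the last of 17755 without control replicate 3. NBD against control gave 0, against 594 of 39344 with no filter, 30 with DESeq2, and 0 to 3228, the last of 17755 and again without control replicate 3. The cause was not tested.

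Blocking on replicate number, edgeR called 164 genes in BD against NBD and 0 in each control comparison, and 0 of the 6 complement genes. Deviations from the group mean correlated at 0.61, 0.068 and 0.33 between BD and NBD libraries numbered 1, 2 and 3, so the numbers were not taken to pair the libraries; BD replicate 2 correlated best with NBD replicate 3. Depth limits SERPING1 and, in control replicates 1 and 2, CFB.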
